A study of Homo sapiens with 18 samples.

Results

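SW480 is an established human colorectal cancer cell line, and its response to calcitriol was read on 6 Illumina HT-12 expression BeadChips, single-colour arrays of bead-bound probes. Of these, 3 arrays carried RNA from cells given 50 nM calcitriol for 16 h and 3 carried RNA from cells given the ethanol vehicle for the same time. Per the labels, both groups were treated shortly before confluence in DMEM with charcoal-treated fetal calf serum. The whole series holds 18 arrays, with 3 calcitriol and 3 ethanol arrays each for SW480, HCT116 and LS174T, all colorectal cancer lines. Probes were taken if the platform annotation gave them 1 gene symbol and their detection p-value, the chance of such a brightness from background, was under 0.05 on at least 3 of the 6 SW480 arrays. That left 15446 of 30113 named probes and of 47323 probes in all, and these read 11636 genes. Most were far from the limit, since 13492 named probes were detected on all 6 arrays, 621 on exactly 3, just inside the rule, and 847 on exactly 2, just outside it.

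Calcitriol (1,25-dihydroxyvitamin D3) is the hormonal form of vitamin D. It binds the vitamin D receptor, a nuclear receptor that pairs with a retinoid X receptor on DNA and raises or lowers transcription of nearby genes, among which the catabolic enzyme CYP24A1 closes a feedback loop by inactivating the hormone. In colon epithelium the receptor is best known for inducing calcium transport and for opposing Wnt/beta-catenin signalling, which is constitutively active in SW480 through a truncated APC protein. SW480 cells are a single line, so nothing measured here speaks for other tumours, and the labels do not say that the 3 replicates of a group were separate cultures. A p-value here thus sets a difference against the scatter between arrays of a group, pooled over the 6 groups of the series, part or all of which could be technical. RNA was measured in bulk, so fewer cells with a transcript and less of it per cell cannot be told apart.

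The 6 arrays detected 19295 to 21028 probes. Raw median intensities were 146 to 164.9 on the calcitriol arrays and 148.9 to 181.4 on the ethanol arrays, so the ranges overlapped, although the brightest arrays were ethanol ones. Normalized log2 values of replicates correlated at 0.9906 to 0.992 and had a median SD of 0.142 with calcitriol and 0.146 with ethanol. The first principal component of the 6 arrays, with 35.7% of the variance, separated the groups. Of 12 measured colonic epithelium markers among 14 listed, CDH1 passed the test, CDX1 and LGALS4 were not detected by the rule, and the log2 of their summed intensity was 13.85 to 13.91 with calcitriol and 13.70 to 13.87 with ethanol. None of 6 endothelial markers and 5 of 11 leukocyte markers were measured. PTPRC and CD3E lay below the detection rule, while CD3D was detected on all 6 arrays and LYZ and CD14 were measured. Of 12 fibroblast markers 4 were measured, COL1A1 among them, with COL1A2, COL3A1, DCN and LUM below the rule.

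Few genes passed the threshold in SW480, and more of them were lower than higher with calcitriol. Of 11636 genes, each represented by its brightest probe, 202 (1.74%) passed an adjusted p of 0.05 in limma, with 61 higher (0.524%) and 141 lower (1.21%). The adjustment ran over all 25586 probes that were detected on at least 3 of the 18 arrays, of which 307 (1.2%) passed. At an unadjusted p under 0.05 there were 1964 genes (16.9%), and for 2778 (23.9%) the calcitriol and ethanol arrays did not overlap. All 202 called genes were among these. Responses were small. At least 2-fold differences were seen for 7 genes higher and 4 lower (0.0945% together), a further 20 and 82 lay between 1.5-fold and 2-fold, and 34 and 55 were smaller. The median called rise was 0.54 log2 units and the median called fall -0.63, against a median standard error of 0.122 per gene.

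**Figure D1:**
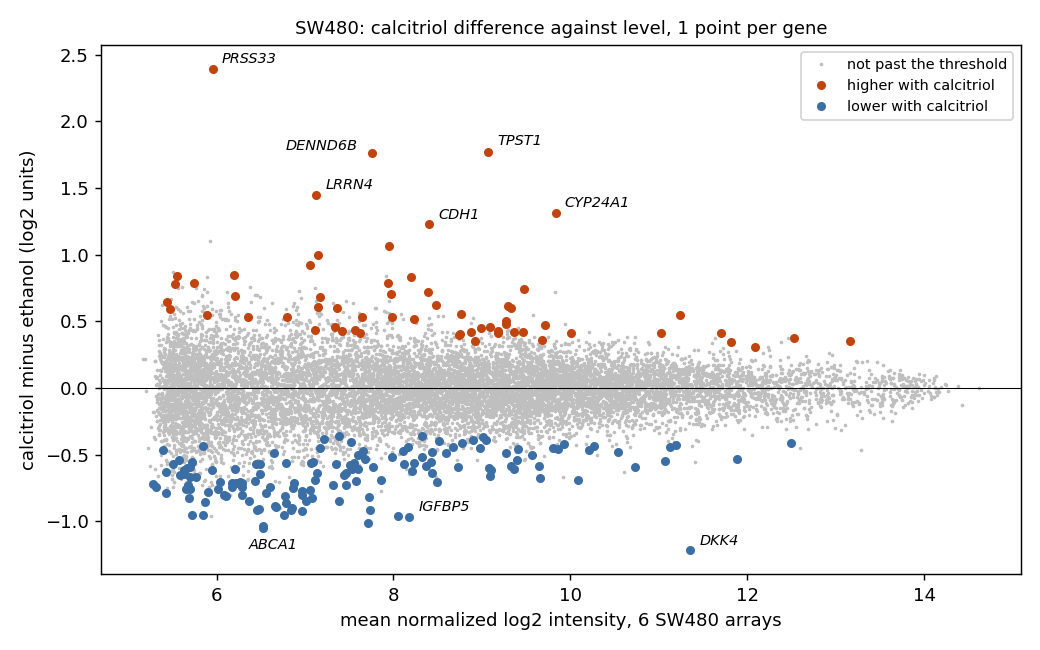
Difference between calcitriol and ethanol (log2 units) against mean normalized log2 intensity over the 6 SW480 arrays, with 1 point for each of 11636 genes. Orange points are the 61 genes higher and blue points the 141 genes lower past the threshold, grey points the rest. The rises of PRSS33, TPST1, DENND6B, LRRN4, CYP24A1 and CDH1 and the fall of DKK4 stand clear of the cloud, and the blue points gather at dim probes.

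Falls were most frequent among dim probes. Of the 3879 genes with the dimmest probes, at mean intensities of 5.17 to 7.37 log2 units, 19 were higher and 73 lower. The 3878 genes next in brightness held 31 higher and 51 lower, and the 3879 brightest 11 higher and 17 lower. Probe brightness depends on the probe as well as on the transcript, so these classes do not rank genes by abundance.

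The count depended on single arrays. It was 119 genes without ethanol replicate 1, 61 without ethanol replicate 2, 150 without ethanol replicate 3, 64 without calcitriol replicate 1, 114 without calcitriol replicate 2 and 137 without calcitriol replicate 3. The genes that passed in all 6 of these fits numbered 48, of which 13 were higher and 35 lower. With the spread estimated from the 6 SW480 arrays alone, 8 genes passed. They were PRSS33, TPST1, DENND6B, LRRN4, CYP24A1, CDH1, IGFBP5 and PAPSS2, so every other call below rests on a spread shared with the arrays of HCT116 and LS174T. Under median scaling in place of quantile normalization 7.69% of 247 called genes were higher, against 30.2% of the 202, and the median over all genes moved to -0.11 log2 units, against -0.01. Rises and falls in that setting are relative to this shift.

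**Figure D2:**
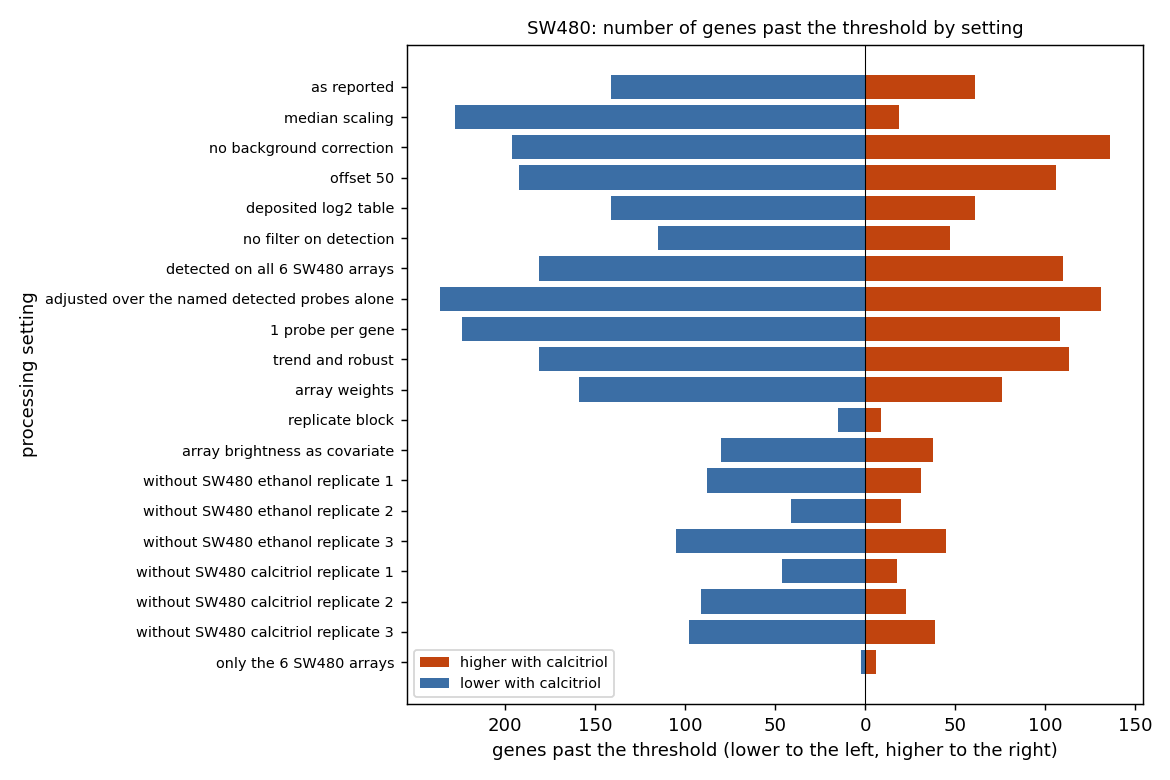
Number of SW480 genes past the threshold under each processing setting, with genes lower after calcitriol as bars to the left and genes higher as bars to the right. The main setting gives 141 lower and 61 higher genes, and lower genes outnumber higher ones in all settings shown except the fit on the 6 SW480 arrays alone, which gives 2 and 6.

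**Figure D3:**
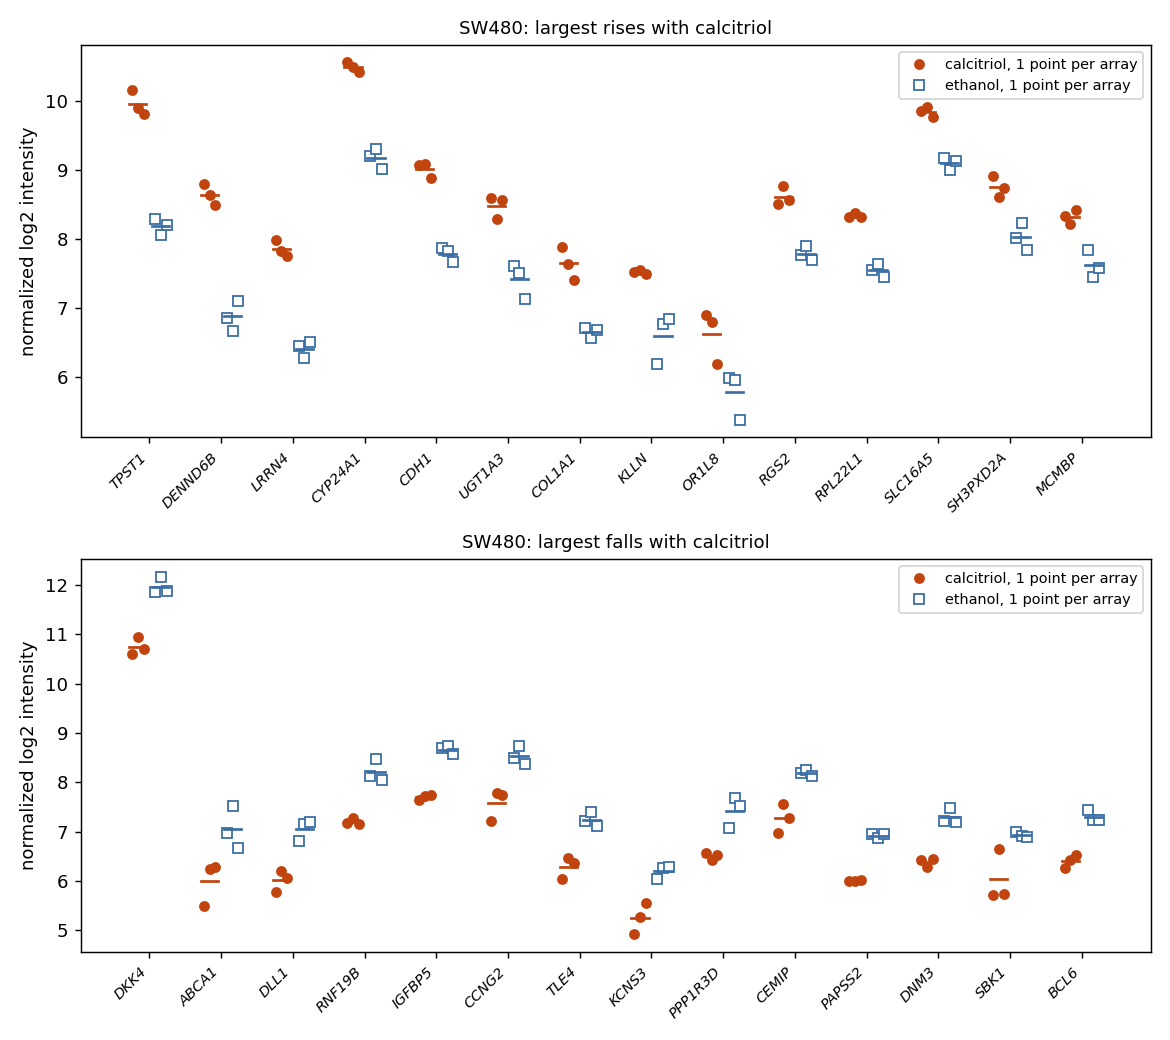
Normalized log2 intensity on each of the 6 SW480 arrays for the 14 largest rises (top) and the 14 largest falls (bottom) among called genes detected in both groups. Filled circles are calcitriol arrays, open squares ethanol arrays and bars the means of 3. The groups do not overlap for any of the 28 genes shown, which the rule for showing them required.

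Of 37 listed vitamin D receptor targets 21 were measured, and 2 rose (CYP24A1 and CDH1) and 1 fell (BCL6), which was 14.3% called, against 1.74% of all genes. The arrays did not overlap for 9 of the 21 (42.9%), against 23.9% of all genes, and the median difference was 0.21 log2 units, against -0.01 over all genes. CYP24A1, the mitochondrial hydroxylase that inactivates calcitriol, read 10.56, 10.49 and 10.42 log2 units with calcitriol, against 9.20, 9.31 and 9.02 with ethanol. Every calcitriol array lay more than 1 log2 unit above every ethanol array. The difference was 1.31 ± 0.10 (SE), or 2.49-fold (adjusted p = 8.33e-06). CDH1 encodes E-cadherin, the adhesion protein of epithelial junctions. It read 9.07, 9.09 and 8.89 with calcitriol, against 7.87, 7.83 and 7.66 with ethanol, again without overlap. The rise of 1.23 ± 0.10 was 2.35-fold (adjusted p = 8.33e-06).

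BCL6, a zinc finger repressor of transcription, went down. It read 6.26, 6.42 and 6.52 with calcitriol, against 7.44, 7.23 and 7.23 with ethanol, a difference of -0.90 ± 0.11 (adjusted p = 0.00104). Other listed targets did not pass. SERPINB1, a protease inhibitor, differed by 0.23 (adjusted p = 0.255) and SEMA3B, a secreted semaphorin, by 0.36 (adjusted p = 0.381), both without overlap between the groups. GEM, a small GTPase, differed by 0.40 with overlap (adjusted p = 0.132). PADI3, a peptidylarginine deiminase, read 7.65, 7.56 and 7.62 with calcitriol, against 7.54, 7.62 and 7.78 with ethanol, and differed by -0.03 (adjusted p = 0.949). The cell cycle inhibitor CDKN1A differed by 0.03 (adjusted p = 0.924). EFL1, a GTPase of ribosome maturation, differed by 0.42 at its brightest probe (adjusted p = 0.0934), while another of its probes passed with 0.52 (adjusted p = 0.00715). TRPV6, SULT1C2 and CYP3A4 were not members, since their probes were detected on no SW480 array, apart from another TRPV6 probe that 1 calcitriol array detected.

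The receptor and its machinery did not change past the threshold. None of 15 measured genes for the receptor, its partners and vitamin D metabolism passed in limma, and 3 had an unadjusted p under 0.05, all lower. Their median was -0.11 log2 units. VDR itself read 6.47, 6.51 and 7.13 with calcitriol, against 6.65, 6.98 and 7.34 with ethanol, with overlapping groups and a difference of -0.29 ± 0.19 (adjusted p = 0.551). RXRA, the receptor's partner, differed by -0.14 (adjusted p = 0.575). EP300, a histone acetyltransferase that acts as a coactivator, differed by -0.36 (adjusted p = 0.215) and CYP27A1, a sterol 27-hydroxylase, by -0.30 (adjusted p = 0.477).

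E-cadherin rose without the rest of the junction. CDH1 was the only 1 of 22 measured epithelial adhesion genes to pass (4.55%, against 1.74% of all genes), and their median difference was -0.05 log2 units. Its catenin partners CTNNB1, CTNNA1 and JUP differed by -0.05, -0.05 and -0.12 (adjusted p = 0.887, 0.839 and 0.665). CTNND1, which encodes the p120 catenin, differed by 0.43 without overlap (adjusted p = 0.263). EPCAM, an epithelial surface protein, differed by -0.04 (adjusted p = 0.912), and the desmosomal genes DSG2 and DSP by -0.30 and -0.19 (adjusted p = 0.253 and 0.325). Outside that list CGNL1, a cingulin-like junction protein, fell by 0.89 on the log2 scale (adjusted p = 0.00819), a call lost without calcitriol replicate 1 (adjusted p = 0.0507, the highest of the 6 leave-one-out fits). Among mesenchymal transition genes the homeobox factor PRRX1 fell by 0.56 on the log2 scale (adjusted p = 0.015), lost without ethanol replicate 2 or calcitriol replicate 3.

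The largest rises were of genes outside the canonical targets. PRSS33, a serine protease, read 7.21, 6.93 and 7.33 with calcitriol, against 4.75, 4.94 and 4.60 with ethanol, where no array detected it. Its rise was at least 3.34-fold, a bound that sets the calcitriol mean against the detection floor of the ethanol arrays (adjusted p = 1.16e-07). TPST1, which transfers sulfate to protein tyrosines in the Golgi, read 10.16, 9.89 and 9.81 with calcitriol, against 8.29, 8.06 and 8.19 with ethanol. DENND6B, an activator of Rab GTPases, read 8.79, 8.63 and 8.49 with calcitriol, against 6.86, 6.67 and 7.10 with ethanol. Both rose over 3-fold, by 1.77 ± 0.13 and 1.76 ± 0.12 log2 units (adjusted p = 2.98e-06 each). LRRN4, a leucine-rich repeat membrane protein, read 7.98, 7.83 and 7.75 with calcitriol, against 6.44, 6.27 and 6.50 with ethanol, and rose by 1.45 ± 0.13 (adjusted p = 2.68e-05). Its dimmer probe differed by 0.56 (adjusted p = 0.166).

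UGT1A3, a glucuronosyltransferase, read 8.59, 8.29 and 8.56 with calcitriol, against 7.61, 7.5 and 7.13 with ethanol, and rose by 1.07 ± 0.17 (adjusted p = 0.0061). UGT1A enzymes share their last exons, and whether the probe separates them was not tested. UGT1A3 was the only 1 of 17 measured xenobiotic and glucuronidation genes to pass (5.88%, against 1.74% of all genes). COL1A1, a chain of type I collagen, read 7.89, 7.64 and 7.40 with calcitriol, against 6.71, 6.56 and 6.68 with ethanol, and rose by 1.00 ± 0.15 (adjusted p = 0.00499). It was the only 1 of 25 measured matrix genes to pass (4%, against 1.74% of all genes). COL1A2, the other chain of the same collagen, was not detected by the rule. The log2 of the summed intensity of the 4 measured fibroblast markers was 10.24 to 10.39 with calcitriol and 10.11 to 10.34 with ethanol, and their part in this rise was not tested.

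Smaller rises covered signalling, transport and metabolism. RGS2, which shortens G protein signals, read 8.50, 8.77 and 8.57 with calcitriol, against 7.76, 7.90 and 7.69 with ethanol, and rose by 0.83 ± 0.15 (adjusted p = 0.0118), a call lost without calcitriol replicate 2 (adjusted p = 0.0518). SLC16A5, a monocarboxylate transporter family member, rose by 0.74 ± 0.10 (adjusted p = 0.00224) and RPL22L1, a paralogue of a ribosomal protein, by 0.79 ± 0.09 (adjusted p = 0.000836). MCMBP, which binds the MCM helicase, rose by 0.70 (adjusted p = 0.00572), FABP3, a fatty acid carrier, by 0.60 (adjusted p = 0.000836), and UBXN8, an endoplasmic reticulum protein, by 0.61 (adjusted p = 0.00174). Another UBXN8 probe, detected on all 6 arrays, differed by 0.06 (adjusted p = 0.924). A dimmer SLC16A5 probe, detected on 5 arrays, differed by 0.26 (adjusted p = 0.712). SLC16A5, RPL22L1, MCMBP, FABP3 and UBXN8 passed in all 6 leave-one-out fits, although MCMBP and UBXN8 did not pass under median scaling, nor did RGS2.

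Other rises passed with all arrays and lost the call in some leave-one-out fits. KLLN, a p53 target, read 7.51, 7.55 and 7.49 with calcitriol, against 6.18, 6.77 and 6.84 with ethanol, and rose by 0.92 (adjusted p = 0.0195, up to 0.0763 in the leave-one-out fits). It lost the call without ethanol replicate 1 or any single calcitriol replicate. OR1L8, an olfactory receptor gene, rose by 0.85 (adjusted p = 0.0286, up to 0.127) and lost it in 4 of 6 fits. PHLDA2, an imprinted growth regulator, rose by 0.68 (adjusted p = 0.0113), and ATP5MK, a small ATP synthase subunit, by 0.55 (adjusted p = 0.0115). Each lost the call without ethanol replicate 2 or calcitriol replicate 1. CST5, the protease inhibitor cystatin D, rose by 0.64 (adjusted p = 0.0134, up to 0.079) with 1 ethanol array detecting it, PCYT2, an enzyme of phosphatidylethanolamine synthesis, by 0.62 (adjusted p = 0.02, up to 0.109), and SH3PXD2A, a podosome scaffold, by 0.72 (adjusted p = 0.0176, up to 0.091). Each of these 3 lost the call in 3 of 6 fits, and another PCYT2 probe, detected on all 6 arrays, differed by -0.17 (adjusted p = 0.824). GPRC5A, a retinoid-induced orphan receptor, rose by 0.69 (adjusted p = 0.0473) and GPKOW by 0.56 (adjusted p = 0.0403), and both lost the call in all 6 fits. Under median scaling ATP5MK, PCYT2, SH3PXD2A, GPRC5A and GPKOW did not pass.

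Some calls were bounds at the detection limit. FOXE3 and TASL were detected on all 3 calcitriol arrays and no ethanol array, with rises of at least 1.46-fold and 1.66-fold (adjusted p = 0.0371 and 0.0454), and IMPACT with at least 1.42-fold (adjusted p = 0.0348). FOXE3 and IMPACT lost the call in all 6 leave-one-out fits and TASL in 5. In the other direction TMT1A, TSHZ2 and CACNA2D2 were detected on all 3 ethanol arrays and no calcitriol array, with falls of at least 1.79-fold, 1.27-fold and 1.16-fold (adjusted p = 0.00821, 0.00572 and 0.00715). These 3 passed in all 6 fits. TMPRSS2, a transmembrane serine protease, was another, read at 5.40, 5.34 and 5.46 on the calcitriol arrays, none of which detected it, and at 6.02, 6.09 and 5.87 on the ethanol arrays (at least 1.43-fold lower, adjusted p = 0.00339). Of the 15446 probes, 14339, 14933 and 14743 were detected on the calcitriol arrays and 15009, 14946 and 14921 on the ethanol arrays. Calcitriol replicates 1 and 3 lay below all ethanol arrays and replicate 2 among them. The part of this in the falls of dim probes was not tested.

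Falls reached Wnt and Notch regulators. DKK4, a secreted inhibitor of Wnt receptors that is itself a target of beta-catenin, was the largest fall among genes detected in both groups. It read 10.59, 10.95 and 10.70 with calcitriol, against 11.85, 12.16 and 11.88 with ethanol, a difference of -1.22 ± 0.13 (adjusted p = 0.000281). TLE4, a Groucho corepressor, read 6.04, 6.46 and 6.37 with calcitriol, against 7.22, 7.39 and 7.11 with ethanol, a difference of -0.95 ± 0.10 (adjusted p = 0.000366). A dimmer TLE4 probe differed by -0.42 (adjusted p = 0.323). DKK4 and TLE4 were the 2 of 30 measured Wnt targets and antagonists that fell (6.67%, against 1.21% of all genes), and none rose. Of the 30 genes 25 had differences below 0, the groups did not overlap for 19 (63.3%), and the median was -0.17 log2 units. These counts can be set beside 23.9% and -0.01 for all genes.

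The other 28 Wnt genes did not pass. The feedback inhibitors AXIN2, NKD1 and ZNRF3 differed by -0.18, -0.21 and -0.17 (adjusted p = 0.335, 0.64 and 0.512), and the ubiquitin ligase RNF43 by -0.31 (adjusted p = 0.16). Other Groucho family members were TLE1 at -0.66 (adjusted p = 0.132) and TLE3 at -0.43 (adjusted p = 0.059), both without overlap. The targets LGR5, CCND1 and MYC differed by -0.06, -0.01 and 0.15 (adjusted p = 0.919, 0.99 and 0.472). Under median scaling 6 of the 30 fell, with a list median of -0.25 against -0.11 for all genes.

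DLL1, a Notch ligand, read 5.77, 6.20 and 6.06 with calcitriol, against 6.80, 7.14 and 7.20 with ethanol, a difference of -1.04 ± 0.12 (adjusted p = 0.000693). HEY1, a repressor switched on by Notch, fell by 0.71 on the log2 scale (adjusted p = 0.00771), with a dimmer probe at -0.09 (adjusted p = 0.919). These were the 2 of 22 measured Notch pathway genes that passed (9.09%, against 1.74% of all genes). The groups did not overlap for 6 of the 22 (27.3%), which was near the 23.9% of all genes. Their median difference was -0.09 log2 units. HES1, the Notch target best known in the gut, differed by 0.03 (adjusted p = 0.951), the receptors NOTCH1 and NOTCH2 by -0.01 and 0.06 (adjusted p = 0.979 and 0.92), and the ligand JAG1 by 0.00 (adjusted p = 0.998). DLL1, HEY1, DKK4 and TLE4 passed in all 6 leave-one-out fits.

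FOXO factors and genes known as their targets held the most falls of the lists described here. The lists were chosen with earlier results of these data known. FOXO proteins are forkhead transcription factors that growth factor signalling through AKT keeps out of the nucleus, and their targets slow the cell cycle, promote apoptosis and drive protein breakdown. Of 36 measured members 9 fell (25.0%) and none rose, 28 had differences below 0, and the groups did not overlap for 16 (44.4%). Of all genes 1.21% fell and 23.9% did not overlap. The list median was -0.19 log2 units, against -0.01 over all genes. Leaving out 1 array at a time gave 5 to 8 falls and median scaling 9. With array brightness as a covariate there were 7, with replicate number as a block 4 and with the 6 SW480 arrays alone 0.

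Promoters of the FOXO list were searched for the forkhead core GTAAACA, on both strands, in RefSeq sequence of GRCh38.p14 that covers 250 bases before to 50 after each annotated start. A start was found for 30 of the 36 genes. The fallen gene FBXO32 could not be among them, since its chromosome was left out of the search. The core was present in 3 of 6 fallen genes with an entry and in 5 genes of the list that did not pass at their brightest probe, of which HBP1 fell at another probe (-0.55, adjusted p = 0.0315). It was present in 9 of 48 starts of the list (18.8%). Among the 35116 starts searched it was present in 3.42%, and in 2.61% of 13440 starts of genes measured here. Starts were counted in these shares, and 8 genes of the list held the core. The list was made of FOXO factors and genes known as their targets, so its share cannot be read as a result of calcitriol. An entry was found for 9286 of the 11636 genes, 37 of the 61 that rose and 106 of the 141 that fell. The core was present at 4.0% of starts of genes that rose and 4.07% of starts of genes that fell. The matches of the 3 fallen genes are shown first, then that of ATOSA, a fallen gene outside the list, and of TXNIP, a list member that did not pass. Each is 29 bases, read 5′ to 3′ on the strand of the gene, with the core in capitals.
BCL2L11, chr2:111120680-111120708, + strand: gagttactccgGTAAACAcgccagggacg
FOXO4, chrX:71095863-71095891, + strand: cccggcgagtgGTAAACAgagacgtcagg
YPEL3, chr16:30096196-30096224, - strand: ctgggctcggtGTAAACAagtccaggcgc
ATOSA, chr15:52678733-52678761, - strand: gagcacaggctGTAAACAcctcccccgga
TXNIP, chr1:145996686-145996714, - strand: tcgggctcctgGTAAACAaggaccgggca
The core begins 223 bases before the start of BCL2L11 and 124 before that of TXNIP, and at base 1, 8 and 24 from the start of YPEL3, ATOSA and FOXO4. A match describes these letters and does not show a binding site.

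RNF19B, a ubiquitin ligase, read 7.18, 7.28 and 7.15 with calcitriol, against 8.13, 8.47 and 8.05 with ethanol, a difference of -1.01 ± 0.12 (adjusted p = 0.000972). CCNG2, the unconventional cyclin G2 that accompanies growth arrest, read 7.20, 7.78 and 7.74 with calcitriol, against 8.49, 8.74 and 8.37 with ethanol, a difference of -0.96 ± 0.14 (adjusted p = 0.00401). Its other 2 probes differed by -0.50 and -0.37 (adjusted p = 0.169 and 0.486). FBXO32, the ubiquitin ligase atrogin-1, read 6.38, 6.59 and 6.71 with calcitriol, against 7.31, 7.38 and 7.40 with ethanol, a difference of -0.80 ± 0.10 (adjusted p = 0.000836). FOXO4, a FOXO factor itself, read 8.70, 8.93 and 8.69 with calcitriol, against 9.32, 9.42 and 9.37 with ethanol, a difference of -0.60 ± 0.09 (adjusted p = 0.00547). At their brightest probes the groups did not overlap for any of these 4, and each passed in all 6 leave-one-out fits. A dimmer FBXO32 probe differed by -0.46 (adjusted p = 0.0969). FOXO1 and FOXO3 differed by 0.01 and -0.10 (adjusted p = 0.987 and 0.759).

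The pro-apoptotic members were less secure. BMF, a BH3-only protein that neutralizes BCL2, read 6.38, 6.19 and 6.55 with calcitriol, against 6.97, 7.47 and 7.11 with ethanol, a difference of -0.81 ± 0.16 (adjusted p = 0.0244), and its other probe passed with -0.76 (adjusted p = 0.0278). The call was lost on leaving out ethanol replicate 2 or either of calcitriol replicates 1 and 2, with an adjusted p of at most 0.127. BCL2L11, the BH3-only protein BIM, read 6.28, 6.10 and 6.10 with calcitriol, against 6.78, 6.79 and 7.27 with ethanol, a difference of -0.79 ± 0.17 (adjusted p = 0.0348), and lost the call in all 6 leave-one-out fits (up to 0.109). A dimmer BCL2L11 probe differed by -0.47 (adjusted p = 0.165). BMF and BCL2L11 were the 2 of 24 measured apoptosis regulators that fell (8.33%, against 1.21% of all genes), with none that rose. The groups did not overlap for 6 of the 24 (25%, against 23.9% of all genes). The death proteins BBC3, BAX and BAK1 differed by 0.20, 0.09 and 0.02 and the survival proteins BCL2L1 and MCL1 by -0.09 and -0.07, none past the threshold. ERBB3, a receptor of the EGF receptor family, fell by 0.55 on the log2 scale (adjusted p = 0.00819), a call lost without ethanol replicate 2 (adjusted p = 0.0517). A dimmer ERBB3 probe differed by -0.11 (adjusted p = 0.869). YPEL3, a yippee-like protein, fell by 0.41 on the log2 scale (adjusted p = 0.0338). It is not among the 48 genes that passed in all 6 leave-one-out fits. TLE4, given above with the Wnt genes, was the remaining fallen member and is counted in both lists. TXNIP, an inhibitor of thioredoxin, differed by -0.39 (adjusted p = 0.423).

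**Figure D4:**
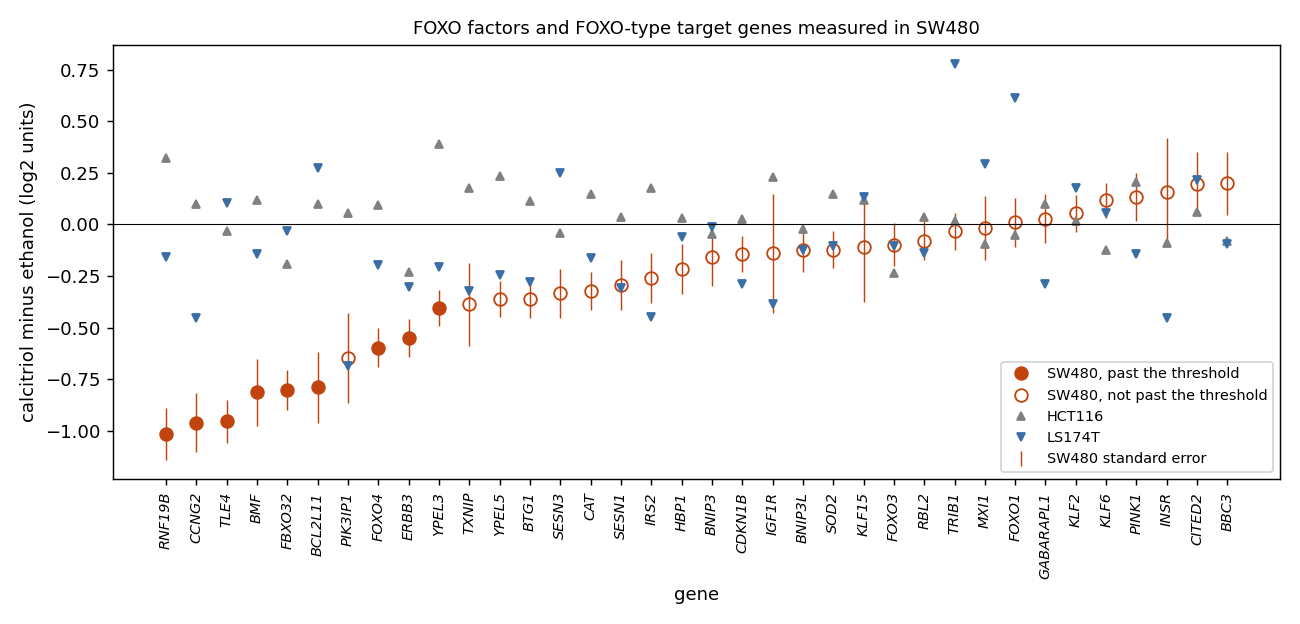
Calcitriol minus ethanol (log2 units) for the 36 measured FOXO factors and FOXO-type targets, ordered by the SW480 difference. Orange circles are SW480 with standard errors, filled for the 9 genes past the threshold and open for the others, grey triangles HCT116 and blue triangles LS174T, and 28 of 36 SW480 differences lie below 0.

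Of 20 growth arrest genes CCNG2 alone passed (5%, against 1.74% of all genes), and the groups did not overlap for 8 (40.0%, against 23.9% of all genes). Of 36 proliferation genes only CDT1, a licensing factor of replication origins, passed (2.78%, against 1.74% of all genes). It rose by 0.43 (adjusted p = 0.0412), a call lost in 5 of 6 leave-one-out fits and under median scaling. Of 31 measured genes of ribosome assembly and MYC targets, 29 had differences above 0, and none passed in limma, with 12 higher and 0 lower at an unadjusted p under 0.05. Their median was 0.15 log2 units, against -0.01 for all genes, and 0.11 against -0.11 under median scaling. The 3 with the largest differences were POLR1G, an RNA polymerase I subunit, at 0.54 (adjusted p = 0.134), MYBBP1A at 0.45 (adjusted p = 0.305) and UTP20 at 0.43 (adjusted p = 0.334). MYC itself read 12.59, 12.74 and 12.60 with calcitriol, against 12.49, 12.5 and 12.51 with ethanol, a difference of 0.15 (adjusted p = 0.472). Of 71 ribosomal protein genes RPL22L1 and RPL34 rose, by 0.79 and 0.34 (2.82% called, against 1.74% of all genes). RPL34 lost the call in all 6 leave-one-out fits, and its dimmer probe differed by 0.21 (adjusted p = 0.231).

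The sulfation genes parted in direction. TPST1 uses the activated sulfate PAPS, which PAPSS2 makes. PAPSS2 fell, with 6.0, 6.0 and 6.01 log2 units with calcitriol, against 6.95, 6.86 and 6.94 with ethanol, a difference of -0.91 ± 0.10 (adjusted p = 0.000291). The 3 calcitriol values lay close together and clear of the ethanol values. PAPSS1, the paralogue, differed by -0.29 without overlap (adjusted p = 0.141), and TPST2, the other tyrosine sulfotransferase, by -0.08 (adjusted p = 0.793). CHST15, a chondroitin sulfotransferase, fell by 0.45 on the log2 scale (adjusted p = 0.0432) but lost the call in 5 of 6 leave-one-out fits (up to 0.178). In all 1 of 20 measured sulfation genes rose and 2 fell (15% called, against 1.74% of all genes).

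IGFBP5, which binds insulin-like growth factors outside the cell, read 7.64, 7.72 and 7.73 with calcitriol, against 8.69, 8.73 and 8.57 with ethanol, a difference of -0.97 ± 0.12 (adjusted p = 0.00112). Its dimmer probe passed as well, with -0.76 (adjusted p = 0.0351). It was the only 1 of 23 measured insulin and IGF genes to pass (4.35%, against 1.74% of all genes). IGFBP3, often listed as a calcitriol target, differed by 0.37 without overlap (adjusted p = 0.216), and IGFBP2, IGFBP4 and IGFBP6 by -0.14, -0.13 and -0.03. TGFB3, a TGF-beta ligand, fell by 0.74 on the log2 scale (adjusted p = 0.0434) and lost the call in 5 of 6 leave-one-out fits. It was the only 1 of 19 BMP and TGF-beta genes to pass (5.26%, against 1.74% of all genes).

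In lipid metabolism 1 of 29 measured cholesterol synthesis and efflux genes rose and 1 fell (6.9% called, against 1.74% of all genes). ABCA1, which exports cholesterol to apolipoprotein A-I, read 5.49, 6.25 and 6.27 with calcitriol, against 6.97, 7.53 and 6.66 with ethanol, a difference of -1.05 ± 0.21 (adjusted p = 0.025). Leaving out ethanol replicate 1, ethanol replicate 2 or calcitriol replicate 1 ended the call, with an adjusted p of at most 0.119. FASN, the fatty acid synthase, rose by 0.37 ± 0.08 (adjusted p = 0.0366), lost in all 6 leave-one-out fits and under median scaling. Of 27 measured interferon response genes 2 fell (7.41%, against 1.21% of all genes). IFIT1, an RNA-binding antiviral protein, read 6.50, 6.32 and 6.24 with calcitriol, against 6.98, 7.14 and 7.51 with ethanol, a difference of -0.86 ± 0.14 (adjusted p = 0.00918). MX2 fell by 0.38 on the log2 scale (adjusted p = 0.0234), lost in 5 of 6 leave-one-out fits.

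Solute carriers were called in both directions. Of 225 measured, 2 rose (SLC16A5 and SLC25A37) and 7 fell, a share of 4.0% called against 1.74% of all genes. SLC25A37, a mitochondrial iron importer, rose by 0.46 (adjusted p = 0.0247) and lost the call in 4 of 6 leave-one-out fits and under median scaling (adjusted p = 0.179). SLC44A2, a choline transporter-like protein, read 9.88, 9.82 and 9.53 with calcitriol, against 10.37, 10.53 and 10.40 with ethanol, a difference of -0.69 ± 0.10 (adjusted p = 0.00401). SLC41A2, a magnesium transporter, fell by 0.58 on the log2 scale (adjusted p = 0.00311), and both passed in all 6 leave-one-out fits. The monocarboxylate family split, since SLC16A5 rose by 0.74 while SLC16A4 fell by 0.85 on the log2 scale (adjusted p = 0.0247) and SLC16A9 by 0.61 (adjusted p = 0.0278). Both of these falls were lost in 5 of 6 fits. SLC9A2, a sodium-proton exchanger, fell by 0.74 (adjusted p = 0.0134) and SLC38A2, an amino acid transporter, by 0.47 (adjusted p = 0.0278), losing the call in 2 and 5 of the 6 fits, and SLC38A2 also under median scaling (adjusted p = 0.0541).

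Further falls joined no list. CEMIP, a hyaluronan-degrading factor, read 6.97, 7.57 and 7.27 with calcitriol, against 8.19, 8.24 and 8.12 with ethanol, a difference of -0.92 ± 0.14 (adjusted p = 0.00466). KCNS3, a modulatory potassium channel subunit, differed by -0.95 (adjusted p = 0.00466), with 1 calcitriol array detecting it, while its undetected other probe differed by -0.07. DNM3, a dynamin, read 6.43, 6.29 and 6.44 with calcitriol, against 7.22, 7.48 and 7.19 with ethanol, a difference of -0.91 (adjusted p = 0.00116). SEPTIN3, a septin, and TUBB4A, a beta-tubulin, both of which are best known in neurons, differed by -0.81 and -0.82 (adjusted p = 0.000477 and 0.00767), and a further SEPTIN3 probe passed with -0.57 (adjusted p = 0.0465). Of 4 listed neuron markers, SYP, SNAP25 and TUBB3 were measured and none passed. The developmental factor TBX2 differed by -0.85 (adjusted p = 0.00174). All of these passed in the 6 leave-one-out fits.

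Less stable falls included PPP1R3D, a glycogen-targeting phosphatase subunit, at -0.92 (adjusted p = 0.0403), the kinase gene SBK1 at -0.90 (adjusted p = 0.0435) and CLIC5, a chloride intracellular channel protein, at -0.85 (adjusted p = 0.0451). They lost the call in 5, 5 and 4 of the 6 leave-one-out fits. The calcitriol arrays of SBK1 read 5.71, 6.65 and 5.74, so that replicate 2 stood near the ethanol values of 7.0, 6.92 and 6.89. MEOX1, a homeobox gene, differed by -0.85 (adjusted p = 0.0195), and GALNT16, a mucin-type glycosyltransferase, by -0.81 (adjusted p = 0.0208), each lost in 3 fits. A second MEOX1 probe, detected on all 6 arrays, differed by 0.03 (adjusted p = 0.97).

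No gene passed in limma among 17 measured NF-kB and inflammatory genes, 25 of endoplasmic reticulum and amino acid stress, 30 of ERK feedback and immediate early response, 15 of calcium handling, 11 of intestinal differentiation and 6 metallothioneins. At an unadjusted p under 0.05 they held 0, 2, 3, 0, 1 and 0 genes higher and 3, 3, 4, 3, 1 and 0 lower, against 16.9% of all genes in either direction. With 1.74% of all genes called, counts of 0 in lists this short are near the background. The groups did not overlap for 12 of the 30 ERK genes (40.0%) and 9 of the 25 stress genes (36%). The 3 largest differences of the inflammatory list were CCL20 at -0.66, TNFAIP3 at -0.52 and BCL3 at -0.43 (adjusted p = 0.0867, 0.233 and 0.498). Among 327 zinc finger genes 3 were called (0.917%, against 1.74% of all genes). ZNF25, ZNF787 and ZNF706 rose by 0.53, 0.50 and 0.43, and none fell. Each lost the call in 2 to 6 leave-one-out fits and under median scaling. Of 62 heat shock genes 2 were called (3.23%, against 1.74% of all genes). HSPB8 and HSPA4L fell by 0.71 and 0.53 on the log2 scale (adjusted p = 0.0398 and 0.0133). They lost the call in 6 and 2 of the 6 leave-one-out fits. In the hypoxia list of 32 only ANKRD37 was called (3.12%, against 1.74% of all genes). It fell by 0.59 on the log2 scale (adjusted p = 0.0247), lost in all 6 fits.

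Probes of the same gene mostly had the same sign. Of the 202 called genes 50 had further member probes, 64 in all. Of these probes 56 had the same sign, 8 the opposite sign and 7 passed as well, all with the same sign. Another 54 genes were called only by a probe that was not their brightest and are not counted in the 202.

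The response of SW480 was set beside those of HCT116 and LS174T over the same 11636 genes. HCT116 had 3 genes higher and 1 lower (0.00859%), and LS174T 248 higher and 223 lower. Of the 61 genes higher in SW480, CYP24A1 alone was higher in HCT116 (1 of 3 there, which are 0.0258% of all genes). In LS174T 9 were higher, which was 14.8% of the 61 and 3.63% of the 248 raised there (2.13% of all genes). They were PRSS33, DENND6B, CYP24A1, CDH1, SLC16A5, GPRC5A, PHLDA2, SERINC2 and PRELID3A. RGS2 went the other way. It read 8.61 ± 0.14 with calcitriol and 7.78 ± 0.11 with ethanol in SW480 (SD, n = 3 each), against 7.49 ± 0.35 and 8.65 ± 0.18 in LS174T, and the responses differed by 1.99 log2 units (adjusted p = 5.15e-05). Of the 141 genes lower in SW480, 14 were lower in LS174T, which was 9.93% of the 141 and 6.28% of the 223 lowered there (1.92% of all genes). PAPSS2, TMPRSS2 and NUP62CL were lower in SW480 and higher in LS174T.

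Tests of the difference itself found 159 genes whose response differed between SW480 and HCT116, with 59 above 0 (0.507%) and 100 below (0.859%). Against LS174T there were 235, with 79 above 0 (0.679%) and 156 below (1.34%). TPST1 rose by 1.77 in SW480 and differed by -0.05 in HCT116 and 0.18 in LS174T, a difference of responses of 1.83 (adjusted p = 0.000379) and 1.59 (adjusted p = 0.000116). LRRN4 was detected on no array of HCT116 or LS174T, with either treatment. PAPSS2 differed by 0.17 in HCT116 and rose by 0.42 in LS174T, and the SW480 response lay below both (adjusted p = 0.0036 and 4.92e-05). The rise of CDH1 exceeded the HCT116 response by 0.83 log2 units (adjusted p = 0.0114), and its response in LS174T, 0.78, was not shown to differ (0.45, adjusted p = 0.124).

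The responses of DLL1, RNF19B and FBXO32, each detected on all arrays of the other lines, lay below those of both lines, with adjusted p of 0.0457 or less in all 6 tests. That of IGFBP5 lay below the HCT116 response (adjusted p = 0.0104), while no LS174T array detected the gene. DKK4 and TLE4 were detected on no array of HCT116 or LS174T, so a fall could not be seen there and no difference between lines is read for them. FOXO4 and CCNG2 differed from HCT116 (adjusted p = 0.0227 and 0.0236) and were not shown to differ from LS174T (adjusted p = 0.151 and 0.254). The FOXO list as a whole had a median of -0.19 in SW480, 0.05 in HCT116 and -0.14 in LS174T, with 9 falls, no call and 2 rises.

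Several genes responded less in SW480 than in LS174T. CYP24A1 reached 10.49 ± 0.07 with calcitriol, against 9.17 ± 0.15 with ethanol in SW480, and 12.91 ± 0.16 against an undetected 4.68 ± 0.16 in LS174T (SD, n = 3 each). FOS, an AP-1 subunit, was at 10.51 ± 0.10 with calcitriol and 10.47 ± 0.08 with ethanol in SW480, while it rose to 8.69 ± 0.10 in LS174T, against 5.53 ± 0.30 there with ethanol. The responses differed by -3.12 log2 units (adjusted p = 1.31e-07). CYP3A5, a drug-oxidizing cytochrome, differed by 0.29 in SW480 and rose by 4.02 in LS174T, and MAOA, a monoamine oxidase, by 0.15 and 1.53. The ethanol level of MAOA was 8.40 ± 0.17 in SW480 and an undetected 4.91 ± 0.10 in LS174T. Ethanol levels thus differed between the lines for CYP24A1, FOS and MAOA before any response, with SW480 higher.

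**Figure D5:**
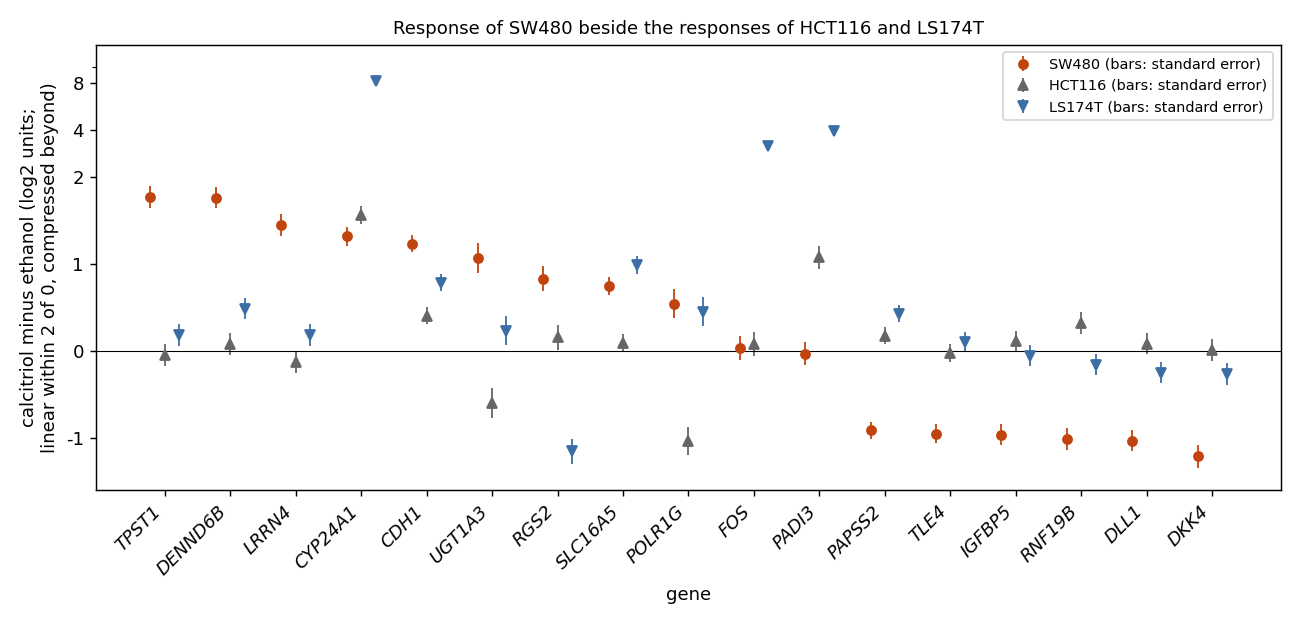
Calcitriol minus ethanol (log2 units) in SW480 (orange circles), HCT116 (grey triangles) and LS174T (blue triangles) for 17 named genes, with standard errors from the fit. The axis is linear within 2 of 0 and compressed beyond. TPST1, PAPSS2, RNF19B and DLL1 separate SW480 from both other lines. LRRN4, DKK4 and TLE4 were detected on no array of the other lines, nor IGFBP5 in LS174T, so their points near 0 there are background signal, while CYP24A1, FOS and PADI3 separate LS174T.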

How the data were processed

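Per the file headers, the authors deposited a non-normalized probe intensity and a detection p-value for each probe on each of 18 arrays. They also deposited a normalized log2 table, whose steps are not given in the sources used here. Per the submitters' processing notes limma was used, without a version. The 887 rows without a probe identifier were left out. Intensities were background-corrected with the detection p-values, offset by 16, quantile-normalized and log2-transformed (neqc, limma 3.58.1, R 4.3.3). These values differed from the deposited log2 values by a median of 0.000195. Symbols came from the platform annotation and were updated through Entrez identifiers for 30074 of 30113 probes.

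A fit of 6 group means over all 18 arrays (lmFit, eBayes) was run on the 25586 probes with a detection p-value under 0.05 on at least 3 arrays. Adjusted p-values are Benjamini-Hochberg over those probes, with a threshold of 0.05. Differences are log2, calcitriol minus ethanol, with standard errors from the fit. The model was tested on simulated data. The number of arrays limits the precision.

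The members and lists were chosen with earlier results of these data known. Named were the 25 largest rises and 25 largest falls past the threshold without overlap, up to 10 bounds in genes undetected in 1 group, up to 8 called genes per list, up to 3 genes of lists without a call, the 10 smallest p-values of each difference between lines, and a fixed set of receptor targets. Other list members are named for their known role and were chosen after their values were seen. A bound sets the brighter group's mean against the detection floor of the other group, or its own signal where that is higher. In SW480 the deviations of same-numbered calcitriol and ethanol arrays correlated at 0.008, -0.0146 and -0.00647. With 3 arrays per group these values show no pairing by number but cannot exclude it. Promoter sequence came from RefSeq (GRCh38.p14), and starts on chromosome 8 were left out. FBXO32 lies there, so the search of the FOXO list did not cover it. Alternatives covered background correction, offset, scaling, filters, adjustment, variance models, array weights, array brightness, replicate block and single arrays left out.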

Additional observations from a re-analysis of the deposited data

Results flagged for a closer look

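The response differed between SW480 and HCT116 for 159 genes and between SW480 and LS174T for 235, by a test of the difference itself. The values below are the SW480 response minus that of the other line, in log2 units, for the 10 genes with the smallest p-values in each comparison.

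Against HCT116, PRSS33 differed by 2.3, TPST1 by 1.83, DENND6B by 1.68, UGT1A3 by 1.67, LRRN4 by 1.58 and POLR1G by 1.58. PRSS33 and LRRN4 were detected on no HCT116 array. On the negative side were RNF19B at -1.33, AQP11 at -1.14, PAPSS2 at -1.09 and TSHZ1 at -0.881. POLR1G did not pass in SW480 itself (0.54, adjusted p = 0.134).

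Against LS174T all 10 differences were negative. They were -6.92 for CYP24A1, -3.99 for PADI3, -3.73 for CYP3A5, -3.12 for FOS, -2.9 for RUNDC3B, -2.51 for PRR5L, -2.3 for WDR72, -1.38 for MAOA, -1.3 for UGDH and -1.19 for TMPRSS2. In SW480 only CYP24A1 and TMPRSS2 of these passed. CYP24A1, MAOA and PRR5L were detected on no LS174T ethanol array, so their LS174T responses start at the detection limit.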

How the results depend on the processing

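The SW480 count of 202 genes was 332 without background correction, 367 when adjusted over the named detected probes alone and 332 with 1 probe per gene. It was 118 with array brightness as a covariate, 8 with the 6 SW480 arrays alone, and 61 to 150 with 1 array left out. The count against HCT116, 159, was 438 without background correction, 275 with an offset of 50, 358 with detection on all 6 SW480 arrays, 372 over the named detected probes, 326 with 1 probe per gene, 359 with trend and robust variances, 46 with brightness and 58 to 152 with 1 SW480 array left out. The count against LS174T, 235, was 473 without background correction and 163 to 227 with 1 SW480 array left out. Under median scaling the share of called genes that were higher was 4.6% against HCT116 and 9.16% against LS174T, compared with 37.1% and 33.6%. The deposited log2 table gave 202, 159 and 235. With the replicate number as a block the counts were 24, 4 and 86. Whether the numbers pair the arrays was not settled. Where the construction of an alternative (fewer arrays, another family of probes) does not show the cause, the cause was not tested. Over the named genes and 3 contrasts, 6598 values kept direction and side of the threshold, 54 changed sign with neither value past the threshold, 796 no longer passed and 165 newly passed. None changed sign where either value passed. Dim probes limit what can be seen, since a gene undetected in 1 group has only a bound.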

Other observations

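Some genes were called only by a probe that was not their brightest. PLPP2, a lipid phosphate phosphatase, rose by 1.06 log2 units at such a probe (adjusted p = 0.0331), detected on 4 arrays. Its brightest probe differed by -0.003. SRSF3, a splicing factor, rose by 1.02 (adjusted p = 0.00928), against 0.26 at its brightest probe. PPFIBP1, a liprin, fell by 0.97 on the log2 scale (adjusted p = 0.00123), while its brightest probe differed by 0.04. MUC1, an epithelial mucin, fell by 0.81 (adjusted p = 0.00723) at a probe detected on 3 arrays, against -0.21 at its brightest probe. ABCG1, a sterol exporter, fell by 0.74 (adjusted p = 0.00762), against -0.18 at its brightest probe.

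Several transcription factors outside the naming rule, chosen here after their values were seen, fell and passed in all 6 leave-one-out fits. The clock-controlled factor DBP read 7.12, 6.87 and 6.87 with calcitriol, against 7.59, 7.76 and 7.70 with ethanol. RORA, an orphan nuclear receptor of the clock, read 8.49, 8.40 and 8.40 with calcitriol, against 9.13, 9.05 and 8.89 with ethanol. MYCN, a MYC paralogue, read 7.08, 7.09 and 7.26 with calcitriol, against 7.90, 7.74 and 7.69 with ethanol. NFIX, a nuclear factor I protein, read 9.41, 9.21 and 9.35 with calcitriol, against 9.96, 10.17 and 9.85 with ethanol. The groups did not overlap for any of the 4.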
